A study of Mus musculus with 18 samples.

Results

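The Fraser complex genes Fras1, Frem1, Frem2 and Grip1, the nephronectin gene Npnt and the laminin chain genes Lama5, Lamb1, Lamb2 and Lamc1 were taken by symbol from the gene tables, 9 of 24111 genes in all. Each of the 9 symbols was found in the count table and in the FPKM table (a level scaled by gene length and library total), and 7 of the 9 passed the filter on low counts in every fit. Fras1 and Frem2 were selected on their lower counts with dDAVP in libraries 1 to 3, and the other genes stand beside them as partners in the same matrix. Values from libraries 1 to 3, and from any fit that contains them, are therefore given as a description, and the tests rest on libraries 4 to 9.

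RNA was sequenced from mpkCCD cells, an immortalised mouse line that resembles principal cells, the water-reabsorbing cells of the collecting duct in the kidney. Both groups were confluent monolayers on permeable supports that spent 24 h without serum, and all libraries come from this single line. The 9 dDAVP libraries came from cells given 0.1 nM dDAVP, a vasopressin analogue that acts on the V2 receptor, for a further 24 h in serum-free medium. The 9 control libraries came from cells kept in the same medium for the same time without dDAVP. Nothing in the labels says that libraries of a group are separate cultures, so p-values measure the spread between libraries, which may be technical.

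Fras1 and Frem2 are large membrane-anchored proteins that lie together with the secreted Frem1 at the foot of an epithelium, where they bind the sheet of cells to the matrix beneath it. Grip1 is the adaptor that carries Fras1 and Frem2 to the basal cell surface, and loss of any of the 4 in mice can leave embryos with blistering and absent kidneys. Nephronectin, a secreted basement membrane protein of the ureteric bud from which collecting ducts form, is held in place by the Fraser complex and binds the integrin made of Itga8 and Itgb1 on neighbouring kidney mesenchyme. Laminins are trimers of an alpha, a beta and a gamma chain that form the scaffold of the basement membrane.

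Of the 9 genes, 7 had an entry in the RefSeq promoter table. Frem1, Grip1 and Lamb2 had entries that are not shown. The sequences of Frem2, Npnt, Lama5 and Lamb1 are shown. Each was read from RefSeq on GRCm38.p6, runs 5′ to 3′ on the gene's strand and ends before the annotated gene. Capitals mark GC boxes, GGGCGG or CCGCCC on the other strand, and half-sites of the cyclic AMP response element, TGACG or CGTCA.
Frem2 promoter, chr3:53657356-53657605, minus strand: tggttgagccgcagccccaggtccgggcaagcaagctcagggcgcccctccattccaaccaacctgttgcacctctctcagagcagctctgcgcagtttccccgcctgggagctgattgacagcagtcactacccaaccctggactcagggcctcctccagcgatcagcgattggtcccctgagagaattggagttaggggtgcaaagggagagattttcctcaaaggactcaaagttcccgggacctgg
Npnt promoter, chr3:132950292-132950541, minus strand: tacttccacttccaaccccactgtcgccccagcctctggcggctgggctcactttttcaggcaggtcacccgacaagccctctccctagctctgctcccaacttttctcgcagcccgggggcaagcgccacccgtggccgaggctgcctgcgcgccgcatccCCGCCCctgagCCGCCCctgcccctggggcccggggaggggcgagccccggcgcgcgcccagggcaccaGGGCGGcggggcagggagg
Lama5 promoter, chr2:180225860-180226109, minus strand: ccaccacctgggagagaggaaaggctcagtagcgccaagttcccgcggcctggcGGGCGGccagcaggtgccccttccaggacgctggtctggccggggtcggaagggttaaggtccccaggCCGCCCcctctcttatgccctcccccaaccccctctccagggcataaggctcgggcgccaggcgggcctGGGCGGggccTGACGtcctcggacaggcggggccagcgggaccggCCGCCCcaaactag
Lamb1 promoter, chr12:31265043-31265233, plus strand: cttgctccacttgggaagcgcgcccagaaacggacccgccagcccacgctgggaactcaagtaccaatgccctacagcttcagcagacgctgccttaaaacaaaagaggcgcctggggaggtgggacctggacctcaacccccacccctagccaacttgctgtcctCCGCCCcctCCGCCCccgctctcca
The Frem2 sequence held no match to these motifs, and neither did the windows of Lamb2 and Frem1, which are not shown. Of the 3 listed Grip1 starts, also not shown, start 2 held 2 GC boxes in its window. Start 3 held 1 half-site, 61 bases before it. The Npnt sequence, which belongs to the outermost of 2 listed starts, held 3 GC boxes and the Lamb1 sequence, cut to 191 bases where the window ran into the annotated gene, held 2. The Lama5 sequence held 4 GC boxes and 1 half-site, which lay 49 bases before the RefSeq start. The window of the other Npnt start, not shown, held 1 half-site, 28 bases before that start. None of the 4 sequences held the full response element TGACGTCA, which contains the half-site. Among 32851 promoters of the same table, 1.55% held the full element, 17.8% a half-site and 32.7% a GC box in the 250 bases before the start. A match of letters describes the sequence and says nothing of binding.

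The libraries fall into 3 sets of replicate numbers, 1 to 3, 4 to 6 and 7 to 9, with 3 dDAVP and 3 control libraries in each, and the mean levels of Npnt, Lamb1 and Lamb2 differed more between sets than between treatments within a set. Library totals ran from 22.2 M to 27.7 M counts in libraries 1 to 3, from 27.3 M to 37.8 M in libraries 4 to 6 and from 41.4 M to 105.9 M in libraries 7 to 9. Counts of ribosomal protein genes made up 18.9% to 26.2%, 0.796% to 9.39% and 9.03% to 14.8% of the total in those sets. The library dDAVP 6 stood apart with the fewest genes detected, 10282, and the lowest ribosomal protein share. In libraries 7 to 9 the closest pair across 11367 genes was dDAVP 7 with control 8 (r = 0.961), while dDAVP 7 reached 0.807 with dDAVP 8 and 0.839 with dDAVP 9. Normalised CPM (CPM) are counts scaled by the library total after adjustment with a TMM factor from edgeR, whereas FPKM uses the unadjusted total. A count of 3 was 0.359 normalised CPM in dDAVP 6, against 0.110 by the unadjusted total. In dDAVP 8 it was 0.0143, against 0.0451. The 2 scales can therefore order the libraries differently. Aqp2, the vasopressin-regulated water channel, had 2760, 174 and 192 normalised CPM in dDAVP 7, 8 and 9. It had 10.8, 37.2 and 252 in control 7, 8 and 9. Control 9 thus lay above dDAVP 8 and 9, and whether each label in that set is right was not tested. The signs of the differences in libraries 7 to 9 and 4 to 9 rest on the labels as given, and could differ if any were exchanged.

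Markers of the labelled cell were present in every library, though not all 10 of them. Aqp3 was counted in 13 of the 18 libraries (median 0.151 normalised CPM) and Scnn1g in 17 (median 0.334). The V2 receptor gene Avpr2 lay between 13.2 and 64.7 normalised CPM. The 10 principal cell markers summed to 320.5 to 3108 CPM in dDAVP libraries, against 162 to 492 CPM in control libraries. Aqp2, which vasopressin regulates, is in that sum and alone ran from 10.8 to 2760 CPM, so the sum depends in part on the treatment. The 8 fibroblast markers summed to at most 0.181 CPM with dDAVP and 1.08 CPM in controls. Among them Pdgfra and Postn had 0 counts, while Pdgfrb, counted in 2 libraries, reached 0.844 CPM. The 6 endothelial markers summed to at most 1.94 CPM with dDAVP and 6.06 CPM in controls. Among them Pecam1, Cdh5 and Kdr had 0 counts, while Plvap was counted in 11 libraries and reached 6.06 CPM. The 5 podocyte markers, of which Wt1 had 0 counts, overlapped between the groups in libraries 1 to 3 and 4 to 6, but in libraries 7 to 9 they summed to 23.0 to 39.6 CPM with dDAVP, against 14.1 to 17.9 CPM in controls. The 7 intercalated cell markers summed to 5.66 to 19.4 CPM with dDAVP in libraries 1 to 3, against 1.79 to 2.56 CPM in controls, without overlap. In the same libraries the 5 proximal tubule markers, of which Lrp2 was the 1 with any count and the other 4 had 0, summed to 2.70 to 5.13 CPM with dDAVP, against 6.16 to 8.21 CPM in controls, again without overlap. The 4 leukocyte markers summed to at most 27.5 CPM with dDAVP and 31.8 CPM in controls. The part of such RNA in the results below was not tested.

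Fras1, which anchors the complex in the basal membrane, was lower with dDAVP in libraries 1 to 3, while the groups overlapped in the other sets. The gene lies on the plus strand of chromosome 5 (mm10, 96373955 to 96784728). It had 5.39, 6.04 and 7.09 normalised CPM with dDAVP in libraries 1 to 3, against 12.7, 23.3 and 27.8 in controls. The groups did not overlap there, and the log2 fold change of dDAVP over control was -1.85 (SE 0.32, n = 3 each). The marker sums of intercalated and proximal tubule cells did not overlap in these libraries either. It had 0.993, 13.6 and 6.10 with dDAVP in libraries 4 to 6, against 6.55, 7.73 and 10.1 in controls, and the dDAVP libraries lay on both sides of all controls. It had 36.1, 5.22 and 7.00 with dDAVP in libraries 7 to 9, against 7.67, 2.99 and 2.57 in controls, so that dDAVP 7 stood far above the other libraries. Fras1 had a log2 fold change of 0.81 over libraries 4 to 9 with the set as a term (SE 0.73, 95% interval -0.70 to 2.33, n = 6 each), which did not pass the test (edgeR adjusted p = 0.976). Without dDAVP 7 it was 0.083, and the value of libraries 7 to 9 alone, 1.80, was 0.41 without that library. In bulk RNA, fewer cells of a type and less RNA per cell cannot be told apart.

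Frem2, the partner that Fras1 and Frem1 stabilise at the basement membrane, was likewise lower with dDAVP in libraries 1 to 3, with overlapping groups in the other sets. It lies on the minus strand of chromosome 3 (53513938 to 53657355), downstream of the promoter shown above. It had 16.2, 12.2 and 12.8 normalised CPM with dDAVP in libraries 1 to 3, against 34.8, 48.0 and 38.3 in controls, and the groups did not overlap. The log2 fold change there was -1.61 (SE 0.28, n = 3 each). In normalised CPM, the 3 control libraries of that set held the highest Frem2 levels of all 18 libraries. In FPKM, dDAVP 8 (3.77) and dDAVP 9 (5.79) lay above those 3 controls, which had 1.94 to 3.16. Frem2 had 13.2, 9.64 and 17.9 normalised CPM with dDAVP in libraries 4 to 6, against 17.3, 14.6 and 15.5 in controls. It had 14.4, 14.7 and 26.0 with dDAVP in libraries 7 to 9, against 16.7, 21.2 and 18.3 in controls. Neither set separated the groups. Frem2 had a log2 fold change of -0.13 over libraries 4 to 9 (SE 0.39, 95% interval -0.96 to 0.70), which did not pass the test (edgeR adjusted p = 0.991).

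Fras1 and Frem2 were among 7 genes that fell with dDAVP in libraries 1 to 3, of 8991 tested (0.0779%) and 41 called in either direction (0.456%), and since that fall chose them the count carries no weight of its own. With single libraries left out, the log2 fold changes were -2.12 to -1.66 for Fras1 and -1.83 to -1.40 for Frem2. The call of Fras1 was lost without control 2, control 3 or dDAVP 2, and that of Frem2 without any 1 of the 3 controls or without dDAVP 2 or dDAVP 3. The level within a treatment differed between sets as well. Frem2 averaged 13.7 ± 2.15, 13.6 ± 4.17 and 18.3 ± 6.60 normalised CPM with dDAVP in libraries 1 to 3, 4 to 6 and 7 to 9, against 40.3 ± 6.82, 15.8 ± 1.38 and 18.8 ± 2.27 in the controls of those sets (SD, n = 3 each). Fras1 averaged 6.17 ± 0.858, 6.91 ± 6.37 and 16.1 ± 17.3 normalised CPM with dDAVP, against 21.3 ± 7.78, 8.14 ± 1.83 and 4.41 ± 2.83 in controls, in the same order of sets. For Frem2 the set-to-set difference was thus wider among controls than among dDAVP libraries in normalised CPM. In FPKM it was not, with means of 0.884, 0.637 and 3.69 with dDAVP, against 2.53, 1.13 and 2.39 in controls. What sets the controls of libraries 1 to 3 apart was not tested.

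Frem1 and Grip1, the other members of the complex, were at or near zero. Frem1, the secreted member, had 4 counts in all, 2 each in dDAVP 2 and dDAVP 3, and 0 in the remaining 16 libraries. Grip1 had 0 counts in all 18 libraries. A count of 0 allows up to 3 counts, which is 0.0143 normalised CPM in dDAVP 8 and 0.359 in dDAVP 6, the ends of the range over libraries, for counting error only. Both genes lay below Fras1 and Frem2 in every library, and no fold change is given for them.

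On the per-length scale of FPKM, Frem2 stood above Fras1 in most libraries. The ratio of Frem2 to Fras1 was 2.31 to 3.85 with dDAVP and 1.76 to 3.52 in controls for libraries 1 to 3, and these ranges overlapped. Both genes were chosen on their fall in those libraries, so a like ratio in the groups carries no weight of its own. In the later sets the ratio ran from 0.511 in dDAVP 7 to 17.03 in dDAVP 4, both dDAVP libraries. Controls ran from 1.97 to 3.38 in libraries 4 to 6 and from 2.80 to 9.13 in libraries 7 to 9.

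**Figure D1:**
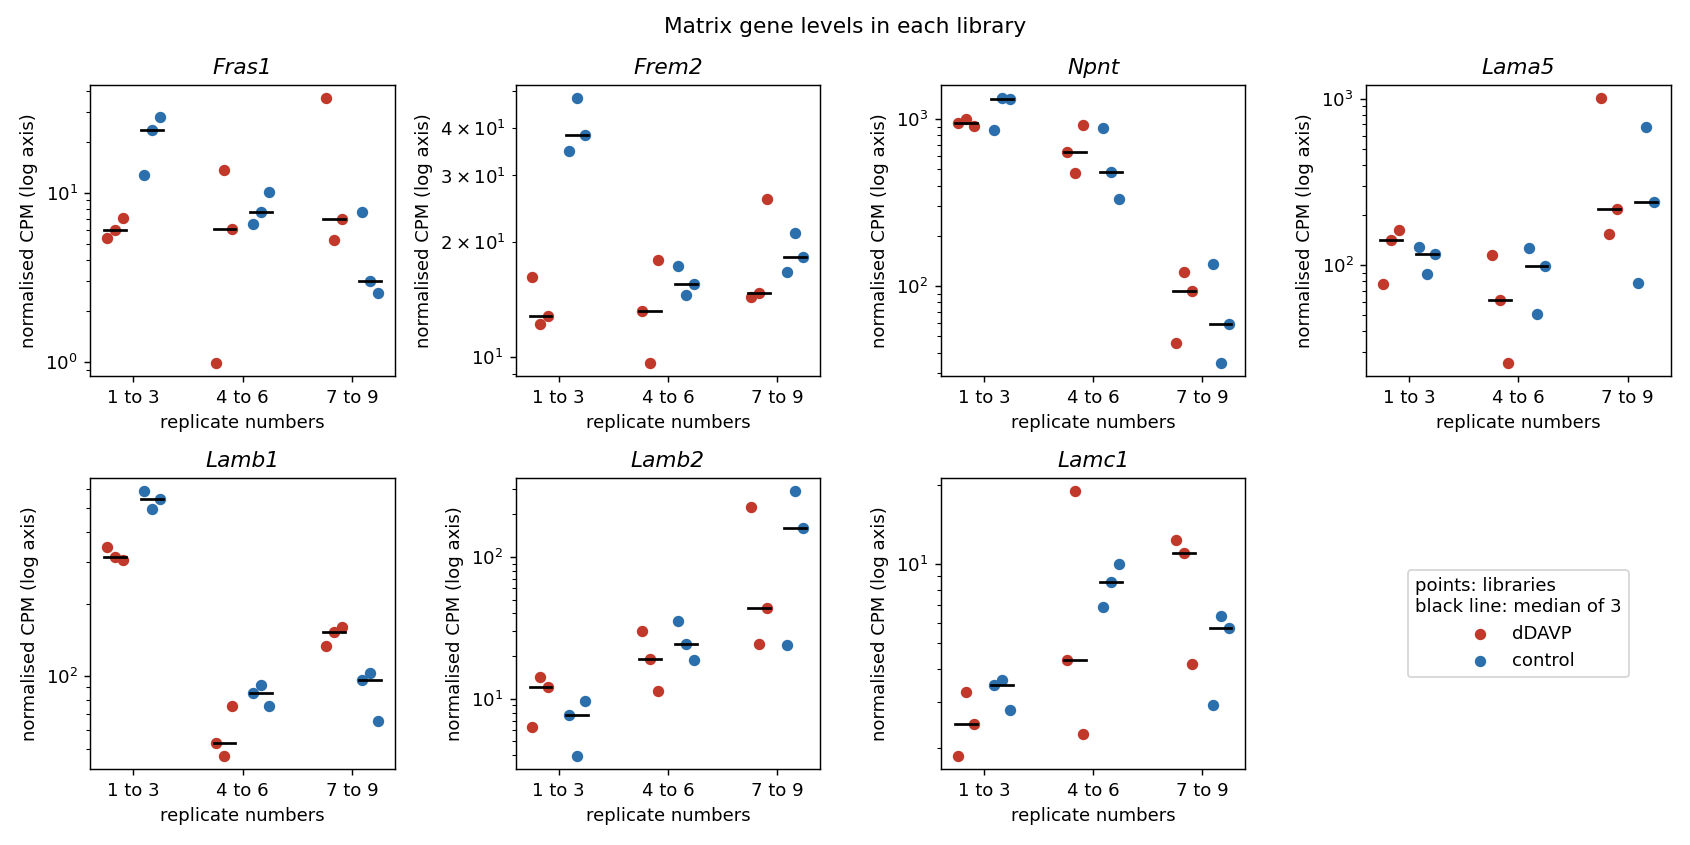
Normalised CPM of the 7 genes that passed the filter, on log axes, in each of the 18 libraries, by set of replicate numbers, with dDAVP in red left of control in blue and the median of 3 as a black line. Fras1, Frem2 and Lamb1 show groups that do not overlap in libraries 1 to 3, and Npnt is lowest in libraries 7 to 9 in both groups.

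Npnt, the nephronectin gene, had the highest median of the 9 per unit of length over all libraries, 96.2 FPKM, with a range of 10.1 to 235.4. Its median led in libraries 1 to 3 and 4 to 6, while in libraries 7 to 9 Lama5 had a median of 47.6 FPKM and Npnt of 35.2. It lies on the minus strand of chromosome 3 (132881745 to 132950291). It had 950.3, 1001 and 913 normalised CPM with dDAVP in libraries 1 to 3, against 860.4, 1338 and 1323 in controls. It had 639.6, 477 and 919 with dDAVP in libraries 4 to 6, against 889.9, 483 and 333 in controls. It had 45.5, 122 and 93.0 with dDAVP in libraries 7 to 9, against 136, 34.7 and 59.6 in controls. The groups overlapped in each set, while in normalised CPM libraries 7 to 9 lay below every library of the other sets, dDAVP and control alike. In FPKM they did not all do so. There dDAVP 8 (83.7) and control 7 (68.5) lay above dDAVP 6 (60.9) and control 6 (66.8). Npnt had a log2 fold change of 0.21 over libraries 4 to 9 (SE 0.48, 95% interval -0.79 to 1.21, n = 6 each; edgeR adjusted p = 0.991).

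The receptor that nephronectin meets in the embryonic kidney was found only in part. Itga8, its alpha subunit, had 0 counts in all 18 libraries and is named after its values were seen. Itgb1, the beta subunit shared by many integrins, was counted in every library, with a median of 6.02 FPKM.

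Lama5, the laminin alpha chain of mature tubular basement membranes, was close to equal in the groups of libraries 1 to 3 and spread widely in libraries 7 to 9. It lies on the minus strand of chromosome 2 (180176373 to 180225859), next to the promoter with 4 GC boxes shown above. It had 77.0, 142 and 161 normalised CPM with dDAVP in libraries 1 to 3, against 127, 87.9 and 116 in controls. It had 114, 61.8 and 25.8 with dDAVP in libraries 4 to 6, against 127, 50.5 and 97.9 in controls, the lowest value being that of dDAVP 6. It had 1006, 154 and 217 with dDAVP in libraries 7 to 9, against 78.1, 675.5 and 240.1 in controls. The groups overlapped in each set. Lama5 had a log2 fold change of 0.016 over libraries 4 to 9 (SE 0.61, 95% interval -1.26 to 1.29; edgeR adjusted p = 0.998), and it became -0.61 without dDAVP 7.

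Lamb1, a laminin beta chain widespread in embryonic basement membranes, was lower with dDAVP in libraries 1 to 3 and higher in libraries 7 to 9. It lies on the plus strand of chromosome 12 (31265234 to 31329644). It had 346, 312 and 304 normalised CPM with dDAVP in libraries 1 to 3, against 587, 494 and 548 in controls. The groups did not overlap, and the log2 fold change was -0.81 (SE 0.22, n = 3 each), short of the threshold that called Fras1 and Frem2. It had 52.7, 46.6 and 75.4 with dDAVP in libraries 4 to 6, against 85.1, 92.5 and 74.9 in controls, with dDAVP 6 just above control 6 (log2 fold change -0.58, SE 0.45). It had 134, 152 and 160 with dDAVP in libraries 7 to 9, against 96.4, 104 and 65.2 in controls, and each dDAVP library lay above each control, as for the podocyte marker sum in that set. The log2 fold change in that set was 0.72 (SE 0.70, 95% interval -0.79 to 2.22), which did not pass the test (edgeR adjusted p = 0.959). Pooled over libraries 4 to 9 it was 0.11 (SE 0.41, 95% interval -0.75 to 0.97; edgeR adjusted p = 0.992), and the difference of the effect between libraries 7 to 9 and 4 to 6 was 1.30 (SE 0.77; edgeR adjusted p = 0.938). The separation depended on the scaling. In FPKM the groups of libraries 7 to 9 overlapped, with dDAVP 7 at 30.3 and control 7 at 38.7. Those of libraries 4 to 6 did not, at 4.00 to 7.93 FPKM with dDAVP against 8.06 to 19.6 in controls. With library totals as the only scaling, as in FPKM, the median log2 fold change of all genes was -0.38 in libraries 4 to 6. In libraries 7 to 9 that median was 0.54. The share of all genes without overlap in FPKM was not counted.

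Lamb2, the beta chain that takes the place of Lamb1 in the maturing glomerular basement membrane, was scarce in libraries 1 to 3 and abundant in some of libraries 7 to 9. It lies on the plus strand of chromosome 9 (108479736 to 108490530). It had 6.35, 14.2 and 12.1 normalised CPM with dDAVP in libraries 1 to 3, against 7.69, 3.95 and 9.58 in controls. It had 30.1, 19.1 and 11.4 with dDAVP in libraries 4 to 6, against 35.2, 24.2 and 18.9 in controls. It had 225, 24.4 and 43.5 with dDAVP in libraries 7 to 9, against 24.1, 290.4 and 161 in controls. The groups overlapped in each set. Lamb2 had a log2 fold change of -0.53 over libraries 4 to 9 (SE 0.59, 95% interval -1.76 to 0.70; edgeR adjusted p = 0.991).

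Lamc1, the gamma chain found in most laminin trimers, was the rarest laminin of the 4, with a median of 0.682 FPKM over all libraries. It lies on the minus strand of chromosome 1 (153218922 to 153332786). It had 1.87, 3.26 and 2.48 normalised CPM with dDAVP in libraries 1 to 3, against 3.48, 3.63 and 2.79 in controls. It had 4.33, 18.8 and 2.27 with dDAVP in libraries 4 to 6, against 6.89, 8.57 and 10.0 in controls. It had 12.4, 11.0 and 4.19 with dDAVP in libraries 7 to 9, against 2.91, 6.37 and 5.74 in controls. The groups overlapped in each set in normalised CPM, with dDAVP 5 the highest of all libraries. In FPKM they did not overlap in libraries 1 to 3, at 0.227 to 0.277 with dDAVP against 0.294 to 0.387 in controls. Nor did they in libraries 7 to 9, at 1.52 to 4.56 FPKM with dDAVP against 0.870 to 1.12 in controls. With library totals as the only scaling, as in FPKM, the median log2 fold change of all genes was 0.059 in libraries 1 to 3. In libraries 7 to 9 that median was 0.54. The share of all genes without overlap in FPKM was not counted. Lamc1 had a log2 fold change of 0.45 over libraries 4 to 9 (SE 0.58, 95% interval -0.78 to 1.67; edgeR adjusted p = 0.991).

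The ratio of Lamb1 to Lamb2 was higher in each of libraries 1 to 3 than in any later library. Its groups did not overlap in libraries 1 to 3, but did in both later sets. No test was run on the ratio, and the share of gene pairs that separate in this way was not counted. Ratios of Lamb1 to Lama5, Lama5 to Lamc1 and Npnt to Fras1 were also computed and are not given. On the FPKM scale the ratio of Lamb1 to Lamb2 was 53.1, 21.3 and 24.4 with dDAVP in libraries 1 to 3, against 74.3, 122 and 55.7 in controls, and the groups did not overlap. The ratio was 1.71, 2.37 and 6.47 with dDAVP in libraries 4 to 6, against 2.36, 3.72 and 3.87 in controls. It was 0.580, 6.08 and 3.59 with dDAVP in libraries 7 to 9, against 3.90, 0.348 and 0.395 in controls. Lamb1 exceeded Lamb2 in each library of the first 2 sets, whereas Lamb2 exceeded Lamb1 in dDAVP 7, control 8 and control 9.

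**Figure D2:**
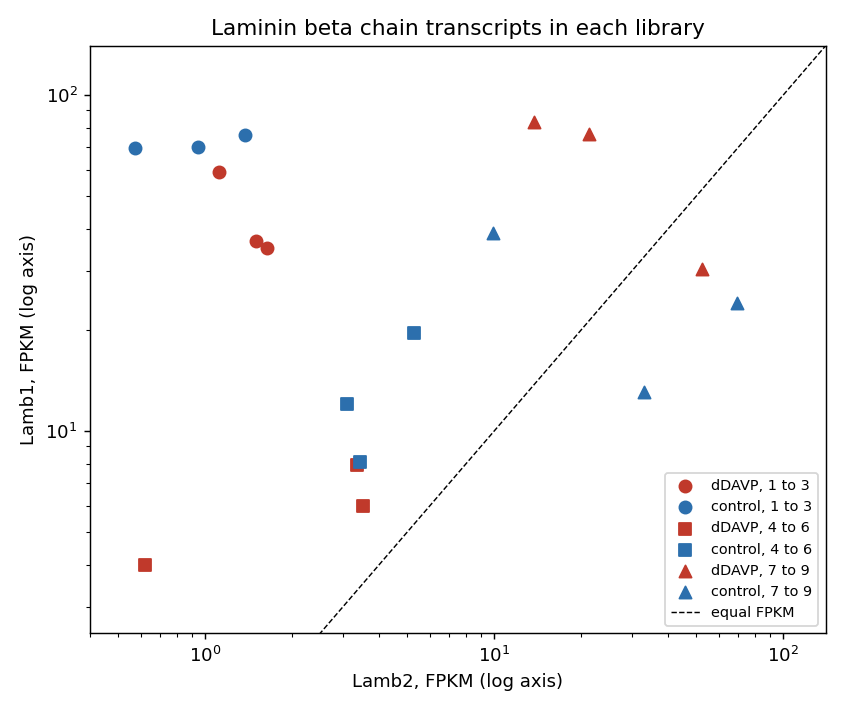
Lamb1 against Lamb2 in FPKM, both on log axes, 1 point per library, dDAVP in red and control in blue, with a symbol for each set of replicate numbers and a dashed line where both are equal. Libraries 1 to 3 lie far above the line, and dDAVP 7, control 8 and control 9 lie below it.

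Read as a group, the matrix genes did not move one way with dDAVP. In libraries 4 to 9, 0 of the 7 genes tested passed the threshold, where 0 of 10761 genes did (0%) and 484 genes (4.5%) had an unadjusted p under 0.05, none of the 7 among them. DESeq2 called 9 genes and voom 2 there, again none of the 7. Aqp2 averaged 896 ± 1008 normalised CPM with dDAVP in libraries 4 to 9, against 70.2 ± 90.0 in controls (SD, n = 6 each). The edgeR fit did not call Aqp2 either, so a gene that did not pass is not shown to be unchanged. Of the 7 in the edgeR fit, 5 had a positive log2 fold change and 2 a negative one, with a median of 0.11 beside 0.0013 over all genes. By set, 5 of the 7 were negative in libraries 1 to 3 with a median of -0.47, beside -0.0077 over all genes. Fras1 and Frem2, chosen on their fall there, were among the 5. Of the same 7, 6 were negative in libraries 4 to 6 with a median of -0.29, beside -0.033 over all genes. Libraries 7 to 9 had 5 of the 7 positive, with a median of 0.46, beside -0.026 over all genes.

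Overlap between the groups was also counted, in normalised CPM. Within libraries 1 to 3, dDAVP was below control without overlap for 3 of the 7 genes tested, Fras1, Frem2 and Lamb1, where 6.93% of the genes tested did so. For 0 of the 7 it was above control, where 7.47% did so. Fras1 and Frem2 were chosen on their fall in these libraries, so the count of 3 carries no weight of its own. None of the 7 was free of overlap in libraries 4 to 6, where 4.38% of genes were lower and 5.38% higher. Lamb1 was the 1 gene of the 7 without overlap in libraries 7 to 9, higher with dDAVP, where 4.56% of genes were higher in that way and 4.43% lower. In FPKM the Lamb1 groups overlapped in libraries 7 to 9 and did not in libraries 4 to 6. The Lamc1 groups did not overlap in FPKM in libraries 1 to 3 or 7 to 9, so these counts depend on the scaling. The shares over all genes given here are for normalised CPM, and those for FPKM were not counted.

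Within libraries 4 to 6 and 7 to 9 taken alone, 0 of the 7 genes passed the threshold, as did 0 of 10387 and 0 of 11367 genes (0% each), with 479 (4.61%) and 590 genes (5.19%) at an unadjusted p under 0.05 and 29 and 94 called by DESeq2. The difference of the dDAVP effect between these sets was 2.10 for Fras1 on the log2 scale (SE 1.32; edgeR adjusted p = 0.958), with 0.72 without dDAVP 7 and 3.13 at the other end, without dDAVP 5. It too passed for 0 of 10761 genes (0%), with 608 (5.65%) at an unadjusted p under 0.05 and 81 called by DESeq2. Over all 18 libraries with the set as a term, Frem2 had a log2 fold change of -0.59 (SE 0.29), Lamb1 of -0.19 (SE 0.27) and Fras1 of -0.069 (SE 0.59), and 0 of the 7 were among the 8 genes called there (0.079%). Over all 18 libraries without the set term, Frem2 had -0.71 (SE 0.35), Lamb1 -0.44 (SE 0.61) and Fras1 -0.21 (SE 0.58), and 0 of 10121 genes passed (0%), with 218 (2.15%) at an unadjusted p under 0.05 and 12 called by DESeq2. None of the 7 was among these DESeq2 calls.

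**Figure D3:**
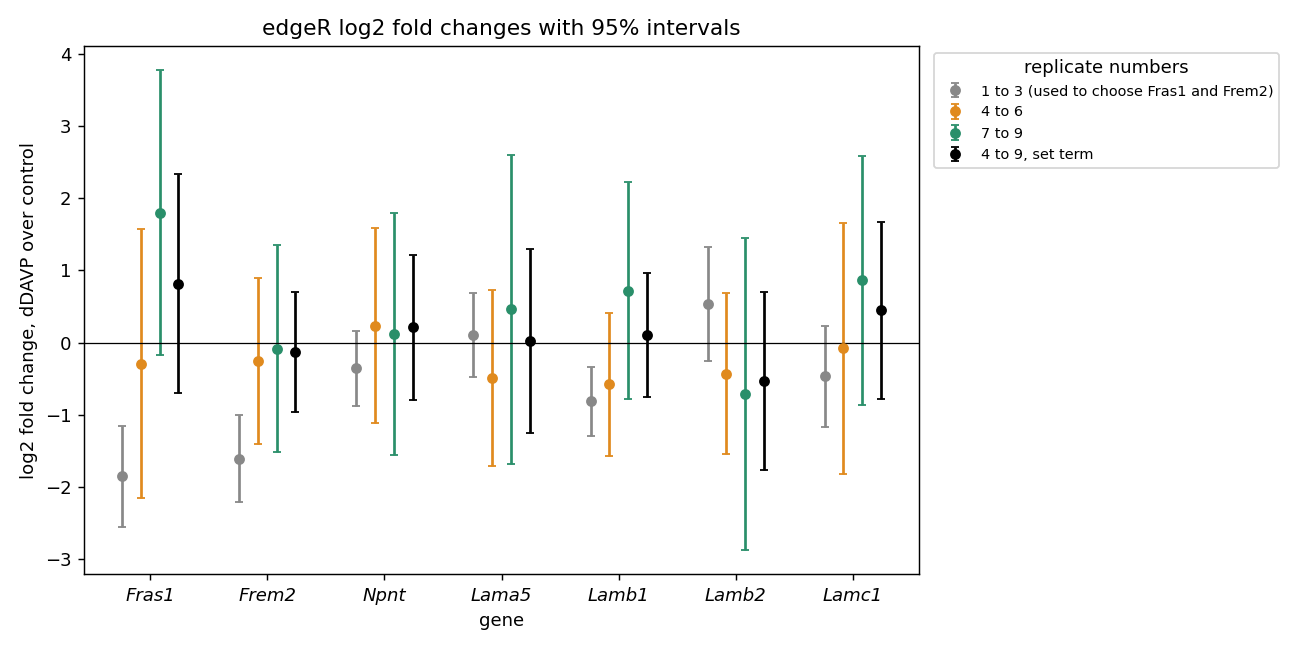
Log2 fold changes of dDAVP over control from edgeR with 95% intervals for the 7 genes tested, in libraries 1 to 3 (grey, the comparison that chose Fras1 and Frem2), 4 to 6, 7 to 9, and 4 to 9 with the set as a term (black). The black intervals all include 0, and Fras1 lies at -1.85 in libraries 1 to 3 and at 1.80 in libraries 7 to 9.

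In libraries 7 to 9 several matrix genes divided the libraries across the treatment labels. In normalised CPM, Lama5 and Lamb2 were highest, and Npnt lowest, in dDAVP 7, control 8 and control 9, as the values above show. In FPKM, Lama5 was lower in control 9 (24.4) than in dDAVP 8 (42.8) and dDAVP 9 (52.5). Fras1 did not follow that division, since it was highest in dDAVP 7 and lowest in control 9. Lamb1 did not follow it either, with all 3 dDAVP libraries between 134 and 160 and all 3 controls between 65.2 and 104. Across all genes, control 8 correlated with dDAVP 7 at r = 0.961 and with control 9 at r = 0.883, but with control 7 at r = 0.809. Genes share libraries and depth and are not independent, so these r describe the libraries only, and why they divide this way was not tested.

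**Figure D4:**
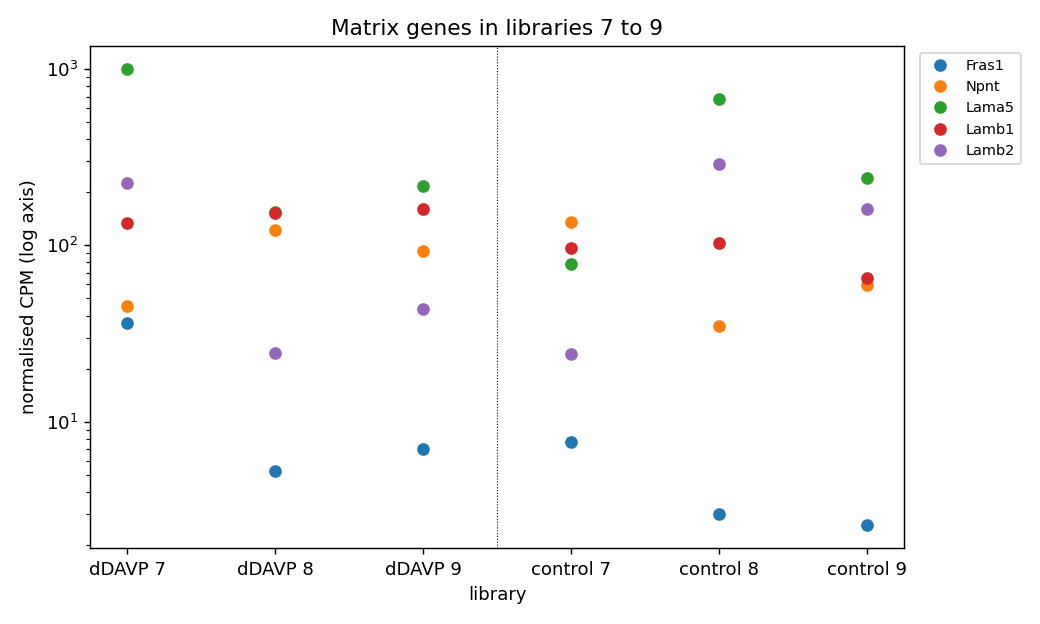
Normalised CPM of Fras1, Npnt, Lama5, Lamb1 and Lamb2 on a log axis in each of libraries 7 to 9, dDAVP left of the dotted line and control right of it. Lama5 is at 1006 in dDAVP 7 and 675.5 in control 8, and Lamb2 at 225 and 290.4 in the same libraries.

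The neighbours of these genes in the matrix were read from 6 lists written from general knowledge, and 0 of their genes passed the threshold in any of the 7 fits. Of the integrins and other receptors of nephronectin and laminin, 11 of 14 were tested in libraries 4 to 9, 3 with a positive and 8 with a negative log2 fold change (median -0.12). The most abundant of these by counts were Sdc4, a cell surface proteoglycan, and Bcam, a receptor for the Lama5 chain. Bcam had 982 ± 1067 normalised CPM in dDAVP libraries 7 to 9, against 1906 ± 1373 in controls 7 to 9 (SD, n = 3 each). It had 87.1 ± 41.7 with dDAVP in libraries 4 to 6, against 133 ± 47.2 in controls. The log2 fold change of Bcam over libraries 4 to 9 was -0.79 (SE 0.60; edgeR adjusted p = 0.972). Sdc4 differed between sets by orders of magnitude, with 29508 ± 22908 CPM in dDAVP libraries 4 to 6 and 17037 ± 10584 in their controls, against 57.7 ± 5.56 and 92.2 ± 39.7 in dDAVP and control libraries 1 to 3.

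Among other ligands of those integrins, 6 of 10 genes were tested in libraries 4 to 9, 2 positive and 4 negative (median -0.39). Lgals3, a secreted lectin, and Fn1, fibronectin, were the most abundant, with log2 fold changes of -0.56 (SE 0.52) and 0.44 (SE 0.39). Among other proteins tied to the Fraser complex, 3 of 8 were tested (median 0.13), Frem3 and Hmcn1 had 0 counts, and the most abundant were Vwa2, a matrix protein that binds Fras1 and Frem proteins, and Dst, a linker of the cytoskeleton. Vwa2 had a log2 fold change of -0.0098 (SE 0.57) and Dst of 0.33 (SE 0.60). Among other laminin chains and the related netrins Ntn1 and Ntn4, 3 of 9 genes were tested (median 0.16), and Lama1 had 0 counts. Lamb3, a beta chain of epithelial laminin, had a log2 fold change of 0.16 (SE 0.54).

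Of other basement membrane genes, 14 of 21 were tested in libraries 4 to 9, 6 positive and 8 negative (median -0.070, beside 0.0013 over all genes). By set, 10 of the 12 tested in libraries 4 to 6 had a negative value (median -0.58, beside -0.033 over all genes) and 13 of the 14 tested in libraries 7 to 9 a positive one (median 0.26, beside -0.026). None passed the threshold in either set, and the difference between sets was not tested for the list. The most abundant were Col18a1, the collagen that yields endostatin, and Agrn, a heparan sulphate proteoglycan, with log2 fold changes of -0.22 (SE 0.57) and -0.42 (SE 0.47) over libraries 4 to 9. Nid1 and Nid2, the nidogens that join laminin to collagen, had 3 and 6 counts over all libraries. Of the proteases and processing enzymes 12 of 22 were tested in libraries 4 to 9, 6 in each direction (median -0.10), with Adam10, a membrane sheddase, at 0.66 (SE 0.74) and Furin, a proprotein convertase, at 0.43 (SE 0.62).

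Levels of Fras1 and Npnt were also compared with those of 6857 genes with a mean of at least 5 normalised CPM, over the 18 libraries after removal of each set's mean on the log2 scale. The genes most like Fras1 were Tia1 (r = 0.84), Dna2 (0.79), Trio (0.70), Mylk (0.69) and Anp32a (0.67). Without dDAVP 7, where Fras1 peaked, those r were 0.77, 0.76, 0.62, 0.52 and 0.77. The genes most like Npnt were Cbx5, Ttc9c and Scd2 (r = 0.86 each), followed by D10Wsu102e and Rbpj (0.85 each). Genes of the same libraries are not independent, the ranking picks the highest of many, and the r are a description. The labels do not say whether libraries of a set were prepared together.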

How the data were processed

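RNA was measured in 18 mpkCCD libraries, 9 dDAVP and 9 control. Libraries were made from 20 ng of RNA and read from a single end for 50 bp, per the labels' protocols, which describe both a low-input kit and a single-cell style method. Alignment to mm10 and counting used HTSeq, SAMtools and STAR 2.4.0.1, as named in the submitters' processing notes. The deposited FPKM table is named for RefSeq genes. The annotation release and strand setting are not given in the sources used here, so reads of antisense genes cannot be told apart. Among genes that overlap the 7 tested genes, Mir7005 at Lama5 had 0 counts. Those at Fras1, Npnt and Lamc1 were absent from the count table, so whether their reads were counted to these genes cannot be told. The authors deposited whole-number counts per gene, and an FPKM table scaled by gene length and library total.

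The members and gene lists were chosen with earlier results of these data known. Counts were tested with edgeR 4.0.16 (quasi-likelihood, TMM, filterByExpr; two-sided, Benjamini-Hochberg over all genes, adjusted p under 0.05) in R 4.3.3, with replicate sets as a term in libraries 4 to 9. SE was taken from the fold change and its F value. Normalised CPM used TMM-scaled totals. DESeq2 1.42.0, limma 3.58.1 (voom, and log2 FPKM plus 1 or 0.1), other scalings and filters, the replicate number as a block and left-out libraries were alternatives. Tables and figures were made in Python 3.11.15 and the fits were tested on simulated data. Gene positions came from GENCODE M21. All 9 genes were named in any case, list genes only where called or, failing that, the 2 with the highest mean CPM; Itgb1, the nidogens and genes at 0 were added after their values were seen, and 1 list gene is not reported here. No libraries of a group were duplicates (lowest chi-square per degree of freedom 65.9). Without molecular identifiers, reads may be copies of 1 molecule, so floors cover counting error only. Same-numbered libraries correlated at r of 0.40 to 0.93 after removal of group means, but at -0.71 to 0.43 after removal of set means, and were not treated as pairs.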

Additional observations from a re-analysis of the deposited data

Results flagged for a closer look

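In 9 dDAVP libraries, the highest Fras1 level, 36.1 normalised CPM in dDAVP 7, stood apart from the next highest, 13.6, by more than the spread of the others. The same held for Lama5 at 1006 CPM in dDAVP 7, against 217 in the next dDAVP library, and at 675.5 CPM in control 8, against 240.1 in the next control. It held as well for Lamb2 at 225 CPM in dDAVP 7, where the next dDAVP library had 43.5. Each gap over the group's range exceeded the 95% critical value of Dixon's test for 9 samples, which chance passes in about 5% of groups drawn from 1 population. The 9 libraries of a group span 3 sets with different levels, so that rate need not hold here. All 4 values are from libraries 7 to 9, and dDAVP 7 and control 8 were the closest pair of that set (r = 0.961).

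In normalised CPM, Lamb1 moved in opposite directions without overlap of the groups in 2 sets. The log2 fold change of dDAVP over control was -0.81 in libraries 1 to 3 and 0.72 in libraries 7 to 9. The difference between these sets was not tested, since libraries 1 to 3 were used in the choice of genes. In FPKM the groups of libraries 7 to 9 overlapped, with dDAVP 7 at 30.3 and control 7 at 38.7.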

How the results depend on the processing

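In libraries 4 to 9, none of the 154 values of the 7 genes under 22 alternatives passed the threshold (lowest adjusted p 0.503). Among all genes, 13 passed there without a filter on low counts, 1 with library totals as the only scaling (an alternative chosen after seeing the data), 9 with DESeq2, 2 with voom and 2 with FPKM plus 0.1, against 0 in the reported fit; leaving out single libraries gave 0 each time. In libraries 1 to 3 the counts were 207, 27 and 123 without the filter, with library totals only and with DESeq2, against 41, with 13 to 774 when single libraries were left out, and the replicate block gave 101. In libraries 4 to 6 they were 1, 1 and 29, against 0 (0 to 2 with libraries left out). In libraries 7 to 9 they were 30, 7 and 94, against 0 (0 to 98), with 3 under the replicate block and 378 without dDAVP 7 and control 7 together, also chosen after seeing the data. DESeq2 called 12 over all libraries, against 0 (replicate block 1), 31 with the set term, against 8, and 81 for the difference between sets, against 0 (also 0 with any single library left out). The cause was not tested.

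Fras1 and Frem2 kept their direction in libraries 1 to 3 but lost the call under library totals only (-1.82 and -1.52), and Lamb1 gained it without dDAVP 1 (-0.94). Signs turned for values that had not passed. In libraries 4 to 9 Lama5 was -0.013 with DESeq2's size factors and with DESeq2, -0.23 with the replicate block, -0.019 with voom, -0.033 with FPKM plus 0.1 and -0.79 without replicate 7 of both groups, and Frem2 was 0.0043 with FPKM plus 1. With library totals only, Npnt was -0.25 in libraries 4 to 6 and Frem2 0.63 in libraries 7 to 9, where that scaling moved the median of all genes by -0.34 and 0.57. Without replicate 7 of both groups, Frem2 was 0.22 and Lama5 -1.11 in libraries 7 to 9. Over all libraries Lama5 was -0.59 with DESeq2, and Npnt, Lama5 and Lamc1 were 0.11, -0.079 and -0.049 with the replicate block. With single libraries left out, ranges that crossed 0 were, in libraries 4 to 9, Lama5 -0.61 to 0.39, Lamb1 -0.057 to 0.26 and Lamc1 -0.039 to 0.70. They were, in libraries 1 to 3, Lama5 -0.050 to 0.34, and in libraries 4 to 6, Fras1 -1.21 to 0.23, Npnt -0.12 to 0.63 and Lamc1 -1.41 to 0.34. In libraries 7 to 9 they were Frem2 -0.36 to 0.064, Npnt -0.27 to 1.05 and Lama5 -0.84 to 1.44. For the difference between sets they were Frem2 -0.12 to 0.45, Npnt -0.51 to 0.65, Lama5 -0.38 to 1.98 and Lamb2 -1.84 to 0.46. Depth limits Frem1 and Grip1 to their floors.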
